A study of Heterocephalus glaber with 9 samples.

Results

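A set of 10 genes of hyaluronan metabolism was followed in the liver of the naked mole-rat (Heterocephalus glaber), namely HAS1, HAS2, HAS3, UGDH, VCAN, HYAL1, HYAL2, HYAL3, TMEM2 and CD44. They were taken by symbol from the deposited count table because hyaluronan has a known role in this species, and all 10 were found among its 16339 rows. Poly(A) RNA was sequenced from whole liver tissue of 9 males, 6 young and 3 old, with 1 library per animal and no treatment in either group. The young livers (young livers 1 to 6) came from animals of 3.4, 2.7, 4.1, 3.7, 3.8 and 2.8 years, and their sample records are marked as re-used. The old livers A, B and C came from non-breeding animals whose labels give 20, 30 and 20 years. The study describes the ages of the old males as minimums and sets the minimum of the group above the label of livers A and C, so the label ages are not exact, and the labels do not give the reproductive status of the young males.

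Hyaluronan is a very long, unsulfated sugar polymer of the extracellular matrix. It is spun out at the plasma membrane by the hyaluronan synthases, cut by hyaluronidases at the cell surface and in lysosomes, and bound by receptors such as CD44. In the naked mole-rat, skin fibroblasts are known to secrete hyaluronan of unusually high molecular mass, a property tied to early contact inhibition and cancer resistance. The liver is a main site of removal of circulating hyaluronan, which its sinusoidal endothelial cells take up through scavenger receptors, while stellate cells are the main liver cells known to make it.

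Total counts per library ran from 14541856 to 20464409. Albumin (ALB) took 7.86 to 14.8% of the counts in the young livers, 7.69% in liver B, 6.99% in liver C and only 1.41% in liver A, so that liver A stood apart from the other 8. The 50 genes of highest mean count held 28.0% of counts in liver A, 37.2 to 39.3% in the other old livers and 40.7 to 47.4% in the young livers. Young liver 3 also stood apart, as it had the highest or the lowest level of the 6 young livers in 69.8% of the 12277 genes tested and in all 7 hyaluronan genes tested. The sample labels of the old and the young animals belong to separate series of names, so age and the origin of the libraries cannot be told apart. Called genes, and the hyaluronan genes tested, are therefore given also without liver A.

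The comparison asked which hyaluronan genes differ in transcript level between old and young livers. Of the 10 genes, 7 had enough counts to be tested (HAS1, UGDH, HYAL1, HYAL2, HYAL3, TMEM2 and CD44). HYAL1 and HYAL2, the main hyaluronidases of somatic tissues, fell in the old livers to 57.8% and 54.6% of the young mean, and none of the other 5 passed the threshold. Genes were called at a false discovery rate (FDR) of 0.1 by edgeR's quasi-likelihood test, with adjustment over all 12277 genes tested. At this threshold 3.65% of all genes tested were lower and 11.7% were higher in the old livers, 15.4% in all. None of the 7 was called higher by edgeR. At an unadjusted p of 0.05 edgeR gave 1 higher, HYAL3, and 2 lower, and no share over all genes is given for that p. At FDR 0.1 DESeq2 called 1 higher (HYAL3) and 2 lower, against 1806 higher and 1058 lower among all genes. At the same FDR limma-voom with sample weights called 2 higher (HYAL3 and CD44) and 2 lower, against 2511 and 2052. The median log2 fold change, old over young, was 0.27 for the 7 genes and 0.02 for all genes tested. In TMM-scaled CPM the old livers lay wholly below the young livers in 2 of the 7 genes, HYAL1 and HYAL2, against 8.01% of all genes tested. They lay wholly above them in 0 of the 7, against 9.83%, so 2 of 7 were apart in either direction against 17.8% of all genes tested.

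**Figure D1:**
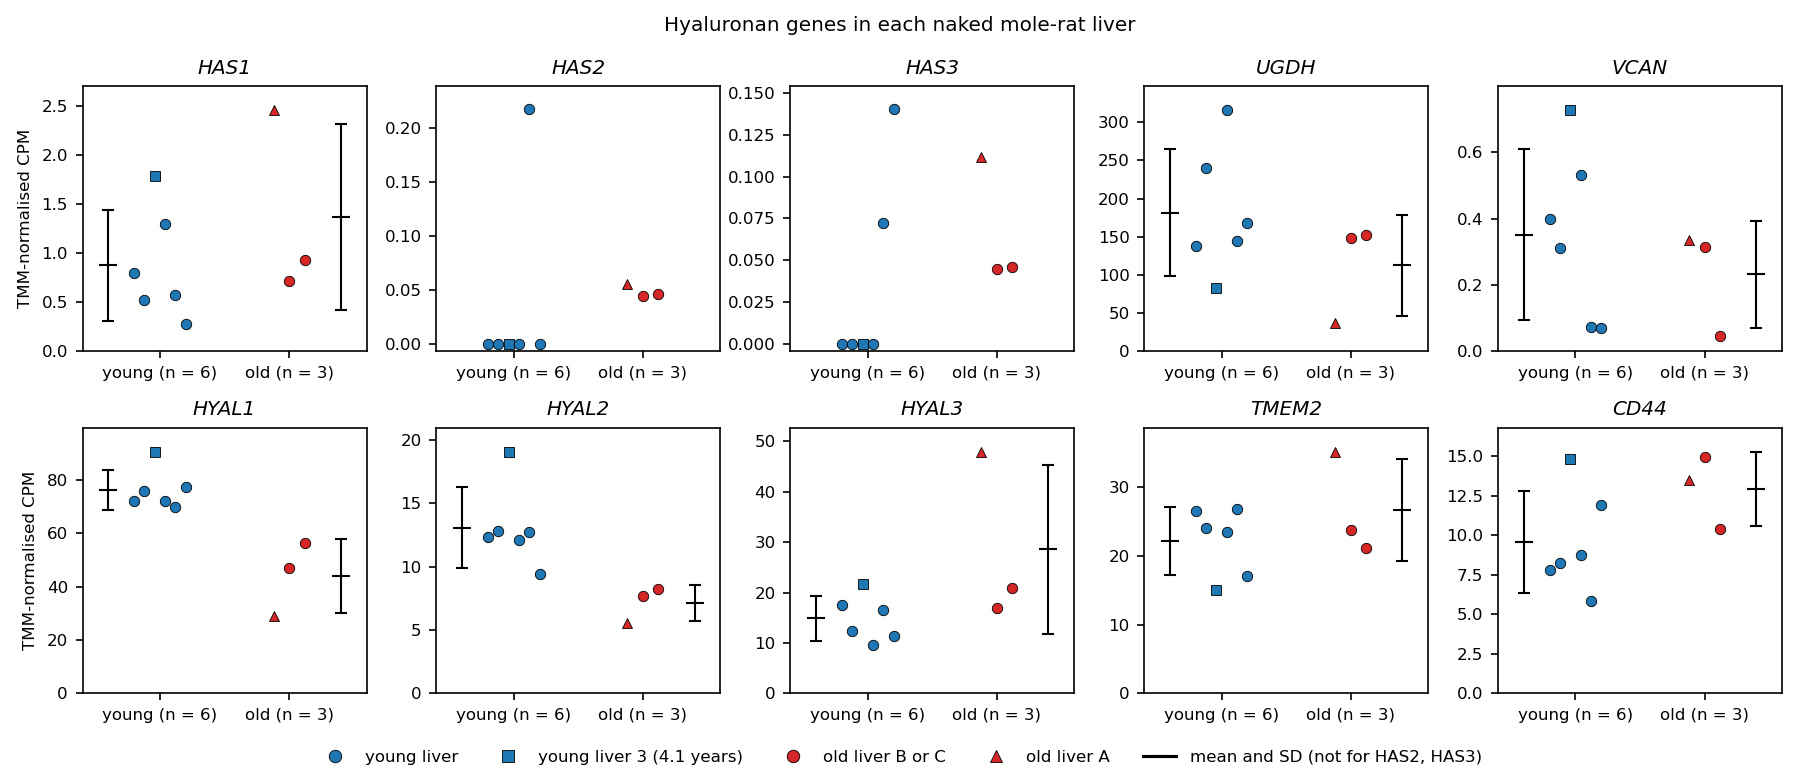
TMM-normalised CPM (linear axes) of each of the 10 hyaluronan genes in every liver, with the 6 young livers (blue, young liver 3 as a square) and the 3 old livers (red, liver A as a triangle) in each panel, and bars for the mean and SD except in HAS2 and HAS3. HYAL1 and HYAL2 are the panels in which no old liver reaches the young range, and HAS2 and HAS3 stay at 0 to 3 counts.

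The synthase genes HAS2 and HAS3 were barely seen in this tissue. HAS1, HAS2 and HAS3 are membrane enzymes that each build the polymer from the same UDP-sugars, and HAS2 is the one whose product is of particularly high mass in the fibroblasts of this species. HAS2 gave 3 counts in young liver 5, 0 counts in the other 5 young livers and 1 count in each old liver. A library with 0 counts still allows up to 3, which here is 0.149 to 0.210 CPM (counts scaled to library size), so no difference was detectable at this depth and no fold change is given. HAS3 was similarly scarce, with 0 counts in 4 young livers, 1 and 2 in young livers 5 and 6, and 2, 1 and 1 in livers A, B and C. For HAS3 the exact two-sided permutation test of mean CPM gave p = 0.405, where the smallest p possible with 3 against 6 livers is 0.0238. These limits cover counting error alone.

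HAS1 was the only synthase with counts in all 9 livers. Its level was 0.280 CPM in the lowest young liver, 0.688 CPM at the median and 1.78 CPM in the highest, from 4 to 27 counts per library. Liver A held 2.46 CPM, liver B 0.717 CPM and liver C 0.927 CPM. Liver A was the highest of all 9, while livers B and C sat inside the young range. Mean levels of 1.37 ± 0.95 CPM (SD, n = 3) in old and 0.876 ± 0.562 CPM (SD, n = 6) in young livers gave a log2 fold change of 0.63 ± 0.57 (SE), which did not pass the test (FDR = 0.476). Without liver A the value was −0.09 (FDR = 0.957). SPACA6, a sperm membrane protein gene not analysed here, overlaps HAS1 in the RefSeq gene table.

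UGDH oxidises UDP-glucose to UDP-glucuronic acid, a building block that hyaluronan shares with sulfated glycosaminoglycans and with hepatic glucuronidation. Its level was 83.3 CPM in the lowest young liver, which was young liver 3, 156 CPM at the median and 316 CPM in the highest. The old livers A, B and C held 36.8, 149 and 153 CPM. Liver A was the lowest of the 9 and livers B and C were close to the young median. The means were 113 ± 65.8 CPM (SD, n = 3) in old and 182 ± 83.1 CPM (SD, n = 6) in young livers, and the log2 fold change of −0.69 ± 0.50 (SE) did not pass the test (FDR = 0.367). Without liver A it was −0.27 (FDR = 0.789).

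VCAN encodes versican, a large chondroitin sulfate proteoglycan that binds hyaluronan and is made by mesenchymal cells. It gave 1 to 11 counts per young library and 6, 7 and 1 counts in livers A, B and C. The young range of 0.070 to 0.726 CPM covered livers A (0.335 CPM) and B (0.314 CPM), and liver C (0.046 CPM) held 1 count, as young livers 5 and 6 did. Mean levels were 0.352 ± 0.258 CPM (SD, n = 6) in young and 0.232 ± 0.161 CPM (SD, n = 3) in old livers, with p = 0.452 in the exact two-sided permutation test.

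HYAL1 is the lysosomal hyaluronidase that cuts hyaluronan taken up by cells into short oligosaccharides. Its level was 69.9 CPM in the lowest young liver, 74.1 CPM at the median and 90.5 CPM in young liver 3, the highest. Livers A, B and C held 29.0, 46.9 and 56.4 CPM. On the TMM scale every old liver was below every young liver, with liver A lowest. Counts per library (966 to 1461 young, 519 to 1216 old) were well clear of the detection limit. Mean levels of 44.1 ± 13.9 CPM (SD, n = 3) in old and 76.3 ± 7.46 CPM (SD, n = 6) in young livers gave a log2 fold change of −0.79 ± 0.24 (SE) at FDR = 0.0730. Without liver A the difference was −0.56 and the call was lost (FDR = 0.128), and without both liver A and young liver 3 it was −0.51 (FDR = 0.0238).

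HYAL2 is a hyaluronidase anchored at the cell surface that cuts large hyaluronan into intermediate pieces ahead of HYAL1. Its level was 9.45 CPM in the lowest young liver, 12.5 CPM at the median and 19.0 CPM in young liver 3. Livers A, B and C held 5.53, 7.67 and 8.21 CPM. On the TMM scale the groups did not overlap and liver A was again lowest. The TMM factors, which scale the library sizes, were 0.840 to 0.986 in young and 1.12 to 1.19 in old livers. HYAL2 depends on this scaling, as the groups overlap by total counts alone. There young liver 6 (135 of 17093404 counts) lay below livers B (171 of 20048731) and C (177 of 18939427). For HYAL1 the groups stayed apart by total counts alone, but only narrowly. Its nearest livers there were liver C (1216 of 18939427) and young liver 6 (1105 of 17093404). The means were 7.14 ± 1.41 CPM (SD, n = 3) in old and 13.1 ± 3.17 CPM (SD, n = 6) in young livers, a log2 fold change of −0.87 ± 0.27 (SE) at FDR = 0.0747. Without liver A the value was −0.72 (FDR = 0.196), and without both liver A and young liver 3 it was −0.58 (FDR = 0.0401). Over the 9 fits that each left out 1 liver, HYAL1 and HYAL2 were each called in 3, those without old liver B, old liver C or young liver 3. In the fits without 1 other young liver, the FDR ran from 0.116 to 0.140 for HYAL1 and from 0.115 to 0.139 for HYAL2 while the log2 fold changes stayed between −0.82 and −0.79 and between −0.95 and −0.88.

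HYAL3 belongs to the same gene family and lies in the same cluster, but in mammals it has shown little hyaluronidase activity of its own. Its level was 9.63 CPM in the lowest young liver, 14.4 CPM at the median and 21.7 CPM in young liver 3. Livers A, B and C held 47.8, 16.9 and 21.0 CPM. Liver A was the highest of all 9, and livers B and C were within the young range but above its median. Mean levels of 28.6 ± 16.8 CPM (SD, n = 3) in old and 14.9 ± 4.53 CPM (SD, n = 6) in young livers gave a log2 fold change of 0.94 ± 0.36 (SE), short of the threshold (FDR = 0.118). Without liver A it was 0.35 (FDR = 0.582). It was called in 3 of the 9 fits that left out 1 liver, at 1.08 without young liver 3 (FDR = 0.0746), 1.20 without liver B (FDR = 0.0622) and 1.12 without liver C (FDR = 0.0968), and was 0.49 without both liver A and young liver 3 (FDR = 0.168). The opposite signs of HYAL3 and its neighbours were not tested as a difference.

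**Figure D2:**
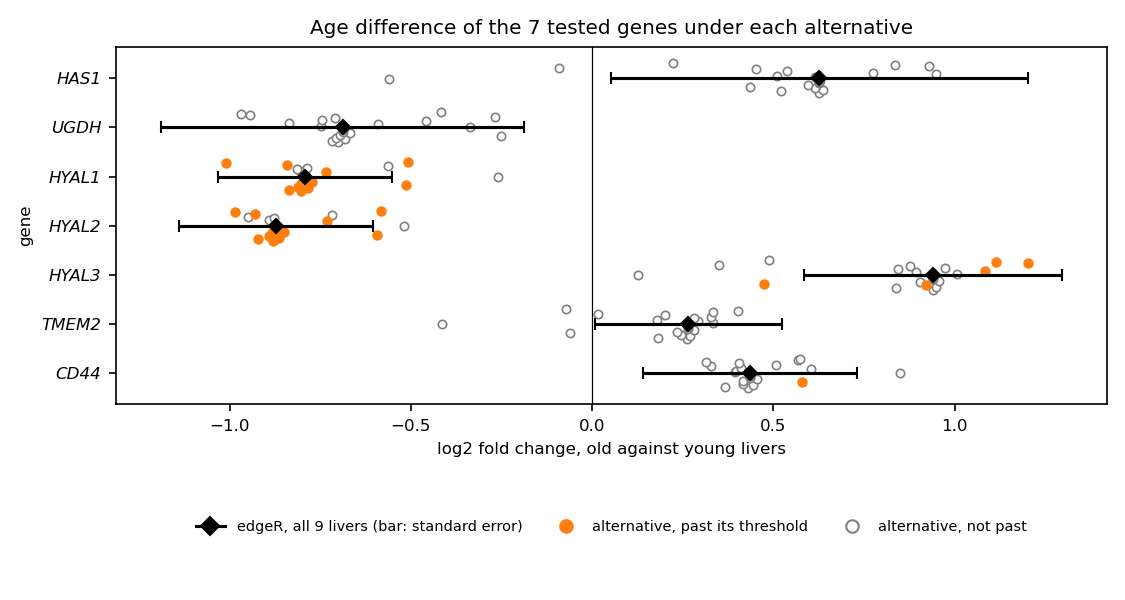
Log2 fold change, old over young, of the 7 hyaluronan genes tested, as a diamond with a bar of 1 SE for the fit on all 9 livers and as small points for the alternative settings, filled where they passed their threshold. HYAL1 and HYAL2 stay below 0 in all 21 alternatives and pass in 12 each, and HAS1 and TMEM2 have points on both sides of 0.

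The 3 HYAL genes sit close together in the RefSeq gene table of this species, in the order HYAL3, NAA80, CYB561D2, HYAL1, HYAL2. There the CYB561D2 model overlaps all 3, and NAA80, for which no level is given here, overlaps HYAL3. The library kit does not mark strand, so reads from overlapping genes cannot be told apart, and the levels of the HYAL genes carry that limit. The study used its own annotation of the public genome, and its models of these genes were not compared with RefSeq. CYB561D2, an electron-transferring membrane protein gene, ran from 18.4 to 28.1 CPM in young livers and was 2.63, 11.3 and 24.1 CPM in livers A, B and C, with a log2 fold change of −0.89 (FDR = 0.250). On the HYAL3 side, IFRD2 rose by 0.82 on the log2 scale (FDR = 0.0619), from 22.2 to 30.1 CPM in young livers to 63.3, 34.8 and 37.0 CPM in livers A, B and C. SEMA3B, a secreted semaphorin gene, rose by 1.68 (FDR = 0.0901), with 39.7 CPM in liver A against 6.59 CPM in liver B, 8.07 CPM in liver C and 3.17 to 11.7 CPM in young livers. Without liver A neither passed, at 0.49 for IFRD2 (FDR = 0.160) and 0.37 for SEMA3B (FDR = 0.699). Beyond HYAL2, TUSC2, RASSF1 and ZMYND10 did not pass the test, with log2 fold changes of −0.01, 0.52 and 1.87 (FDR = 0.979, 0.323 and 0.126). The genes of this stretch thus moved in both directions, and their shares of one another's reads were not tested.

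**Figure D3:**
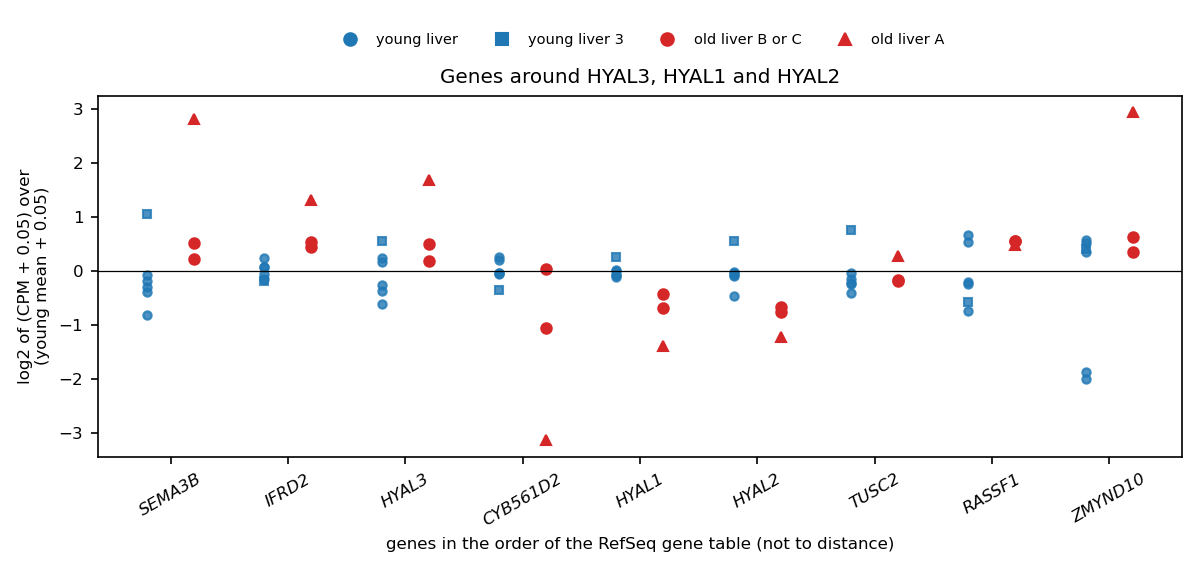
Level of the genes around the HYAL cluster in each young (blue) and old (red) liver as log2 of its CPM over the young mean CPM, 0.05 added to both, in RefSeq order and not to distance. For HYAL1 and HYAL2 all 3 old livers lie below the young ones, and for IFRD2 all 3 lie above. Liver A (triangle) is highest for SEMA3B, IFRD2, HYAL3 and ZMYND10.

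TMEM2 is a cell-surface protein, also called CEMIP2, that degrades hyaluronan outside the cell in mouse and other species. Its level was 15.0 CPM in young liver 3, the lowest, 23.7 CPM at the young median and 26.8 CPM in the highest. Livers A, B and C held 35.0, 23.8 and 21.0 CPM. Liver A was above the young range and the other old livers were within it. Mean levels of 26.6 ± 7.42 CPM (SD, n = 3) in old and 22.1 ± 4.95 CPM (SD, n = 6) in young livers gave a log2 fold change of 0.27 ± 0.26 (SE) at FDR = 0.501. Without liver A it was 0.02 (FDR = 0.979), and without liver A and young liver 3 it was −0.07 (FDR = 0.803), so no direction is given.

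CD44 is the best known hyaluronan receptor, a transmembrane glycoprotein of leukocytes, endothelium and mesenchymal cells. Its level was 5.86 CPM in the lowest young liver, 8.51 CPM at the median and 14.8 CPM in young liver 3, the highest. Livers A, B and C held 13.5, 14.9 and 10.4 CPM. All 3 old livers were above the young median, yet livers A and C lay within the young range. Mean levels of 12.9 ± 2.32 CPM (SD, n = 3) in old and 9.56 ± 3.22 CPM (SD, n = 6) in young livers gave a log2 fold change of 0.44 ± 0.30 (SE), which did not pass the test (FDR = 0.333). Without liver A it was 0.41 (FDR = 0.562), and without both liver A and young liver 3 it was 0.57 (FDR = 0.135). PTPRC, the pan-leukocyte CD45 gene, was 6.15 to 10.3 CPM in young livers and 15.5, 14.6 and 9.13 CPM in livers A, B and C (FDR = 0.124). The 14 macrophage markers given below ran otherwise. Their sum was 158 CPM in liver A, below the young range of 532 to 674 CPM, and 827 and 750 CPM in livers B and C, above it. The part of leukocytes in the CD44 level was not tested.

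In bulk tissue fewer cells of a type and less RNA per cell cannot be told apart, so the marker genes of the liver's cell types were measured beside the hyaluronan genes. The 12 hepatocyte markers, none at 0, summed to 149403 to 255651 CPM in young livers and to 41612, 135792 and 114844 CPM in livers A, B and C, and none was called. The 16 stellate cell and fibroblast markers summed to 422 to 493 CPM in young and to 180, 317 and 308 CPM in livers A, B and C, with 4 of 15 tested lower and 0 higher by edgeR. The stellate sum, and the erythroid sum given last, were lower in every old liver than in any young one, like HYAL1 and HYAL2, also without their most abundant genes ECM1 and HBB. The hepatocyte sum was too, but without ALB it was 55502 to 78492 CPM in young livers and 29657, 66695 and 53488 CPM in livers A, B and C, with liver B inside the young range, and 3 of the 12 markers (APOA1, HNF4A and ASGR1) had higher means in old livers. The part of these cell types in the HYAL1 and HYAL2 results was not tested. The 17 sinusoidal endothelial markers summed to 614 to 1041 CPM in young livers and to 1881, 892 and 897 CPM in livers A, B and C, with 3 of 17 higher and 5 lower. The 14 macrophage markers in the table summed to 532 to 674 CPM in young and 158, 827 and 750 CPM in livers A, B and C, and CD163 was at 0 in all 6 young livers with 1 count in each old liver. The 17 lymphocyte markers in the table summed to 158 to 405 CPM in young and 115 to 317 CPM in old livers, most of it CD4. Without CD4 the sum was 22.6 to 240 CPM in young livers and 36.8, 33.7 and 25.9 CPM in livers A, B and C. Of the 17 markers 12 had higher means in old livers, and of 9 tested 1 was higher (NKG7) and 0 lower. Cholangiocyte markers summed to 296 to 498 CPM in young and 154 to 353 CPM in old livers. Erythroid markers summed to 214 to 901 CPM in young livers, the highest in young liver 3, against 56.2 to 98.0 CPM in old livers. Of the erythroid markers 3 of 4 tested were lower, but 2 of the 8 (EPB42 and GATA1) had higher means in old livers.

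Other genes of the pathway were read from lists of 153 genes, of which 147 were in the table and 132 were tested. In the old livers 13 rose, 6 fell and 113 did not pass the test, so that 14.4% were called against 15.4% of all genes tested. Their median log2 fold change was −0.13 against 0.02 for all genes tested. All 19 kept their direction without liver A, but only 5 were still called (ANK3, ADAM17, VAV2, STAT3 and XYLT2). Liver A was the outermost old liver, in the direction of the change, in 16 of the 19. Over all genes tested it was the highest or the lowest of the 3 old livers in 93.5%. That share counts either extreme, so it is not the same measure as the 16 of 19. Without both liver A and young liver 3, 17 were called (all but HABP4 and NOTCH1). DESeq2 called 17 and gave no adjusted p for the other 2, HABP4 and CDKN1B, and voom called 18, all but HABP4.

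Among 8 receptors tested, 1 rose and 0 fell at FDR 0.1, with a median log2 fold change of 0.14. STAB1, a scavenger receptor of the liver sinusoids, rose by 1.38 on the log2 scale (FDR = 0.0598), with 111 to 225 CPM in young livers and 755, 270 and 268 CPM in livers A, B and C. Without liver A it was 0.70 (FDR = 0.246). STAB2, the main endocytic receptor for circulating hyaluronan, was 433 CPM in liver A but 96.7 and 97.3 CPM in livers B and C, inside the young range of 52.8 to 161 CPM (log2 fold change 1.03, FDR = 0.191). PTPRJ, a receptor phosphatase, had a log2 fold change of 0.44 (FDR = 0.319). STAB1 and STAB2 are also among the endothelial markers above, so the receptor and marker values are not separate measurements.

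In the list of hyaluronan-binding matrix proteins, 3 of 11 tested rose and 0 fell, with a median of 0.34, but 1 of the 3, HABP4, is an intracellular RNA-binding protein despite its name. TNFAIP6, which moves heavy chains of inter-alpha-trypsin inhibitor onto hyaluronan, rose by 2.22 (FDR = 0.0390), from 6.56 to 20.5 CPM in young livers to 132, 31.1 and 36.3 CPM in livers A, B and C. BCAN, encoding brevican, rose by 1.13 (FDR = 0.0680) at 0.420 to 0.990 CPM young and 1.68, 1.35 and 1.53 CPM old. HABP4 rose by 1.70 (FDR = 0.0752), but livers B and C (11.0 and 13.5 CPM) lay within the young range of 6.38 to 15.5 CPM and liver A held 73.7 CPM. Without liver A the log2 fold changes were 1.25 for TNFAIP6 (FDR = 0.104), 1.05 for BCAN (FDR = 0.164) and 0.28 for HABP4 (FDR = 0.661).

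Inter-alpha-trypsin inhibitor chains, plasma proteins that hepatocytes secrete and that are joined to hyaluronan, gave 1 lower and 0 higher of 6 tested, with a median of −0.38. ITIH2, one of the heavy chains, fell by 0.93 on the log2 scale (FDR = 0.0645), from 1041 to 1639 CPM in young livers to 470, 828 and 726 CPM in livers A, B and C, and was −0.73 without liver A (FDR = 0.117). AMBP, the precursor of the light chain bikunin, was −0.68 (FDR = 0.254) and ITIH5 was −0.94 (FDR = 0.358).

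Of 14 sugar precursor genes tested, 1 rose and 1 fell, with a median of −0.16. MGEA5, the enzyme that takes O-linked N-acetylglucosamine off proteins, rose by 0.89 (FDR = 0.0655), and GPI, which interconverts glucose and fructose phosphates, fell by 1.06 (FDR = 0.0773). The groups overlapped in GPI, where liver B (153 CPM) lay within the young range of 144 to 291 CPM. Without liver A, MGEA5 was 0.45 (FDR = 0.151) and GPI −0.78 (FDR = 0.189). SLC35D2, a nucleotide-sugar carrier, had a log2 fold change of −0.80 (FDR = 0.106). Of 11 other degradation genes, 1 rose and 0 fell, with a median of 0.12. HEXDC, a hexosaminidase, rose by 0.76 (FDR = 0.0544) and was 0.65 without liver A (FDR = 0.112), whereas KIAA1199, the hyaluronan-depolymerising protein also called CEMIP, was 0.80 (FDR = 0.184).

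CD44 partners and processing genes gave 2 higher and 2 lower of 25 tested, with a median of −0.31. ADAM17, a sheddase, rose by 0.87 (FDR = 0.0510), with 8.52 to 15.4 CPM in young livers and 24.3, 25.6 and 22.2 CPM in livers A, B and C. VAV2 rose by 2.04 (FDR = 0.0410), while ANK3, an ankyrin, fell by 0.99 (FDR = 0.0395) and SRGN, the proteoglycan serglycin, fell by 0.92 (FDR = 0.0674). Without liver A these 4 were 0.86 (FDR = 0.0940), 0.98 (FDR = 0.0827), −1.03 (FDR = 0.0553) and −0.68 (FDR = 0.157), in the order named.

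Of 21 regulators of HAS2 tested, 3 rose and 0 fell, with a median of 0.05, although HAS2 itself was near the detection limit. STAT3, a cytokine-activated transcription factor, rose by 1.13 (FDR = 0.0395), from 214 to 278 CPM in young livers to 765, 483 and 415 CPM in livers A, B and C. NOTCH1 rose by 0.99 (FDR = 0.0669) and the retinoic acid receptor gene RARA by 1.24 (FDR = 0.0789), where livers B and C of RARA overlapped the young range. Without liver A, STAT3 was 0.82 (FDR = 0.0542), NOTCH1 0.57 (FDR = 0.246) and RARA 0.38 (FDR = 0.460).

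Contact inhibition and cell cycle brakes gave 1 higher and 1 lower of 16 tested, with a median of −0.15. CDKN1B, encoding the inhibitor p27, rose by 1.63 (FDR = 0.0714), with 215 CPM in liver A and with livers B and C (38.9 and 44.0 CPM) inside the young range of 22.9 to 51.5 CPM. STK3, a Hippo pathway kinase, fell by 0.88 (FDR = 0.0517), and WWTR1, a Hippo effector also called TAZ, was −1.31 (FDR = 0.158). Without liver A, CDKN1B was 0.37 (FDR = 0.519) and STK3 −0.76 (FDR = 0.104). Proteoglycan chain synthesis gave 1 higher and 1 lower of 20 tested, with a median of −0.24. XYLT2, which starts chains on core proteins, rose by 1.12 (FDR = 0.0511), EXTL2 fell by 0.68 (FDR = 0.0815) and CHST15 was −0.75 (FDR = 0.109). Without liver A, XYLT2 was 1.26 (FDR = 0.0790) and EXTL2 −0.54 (FDR = 0.190).

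**Figure D4:**
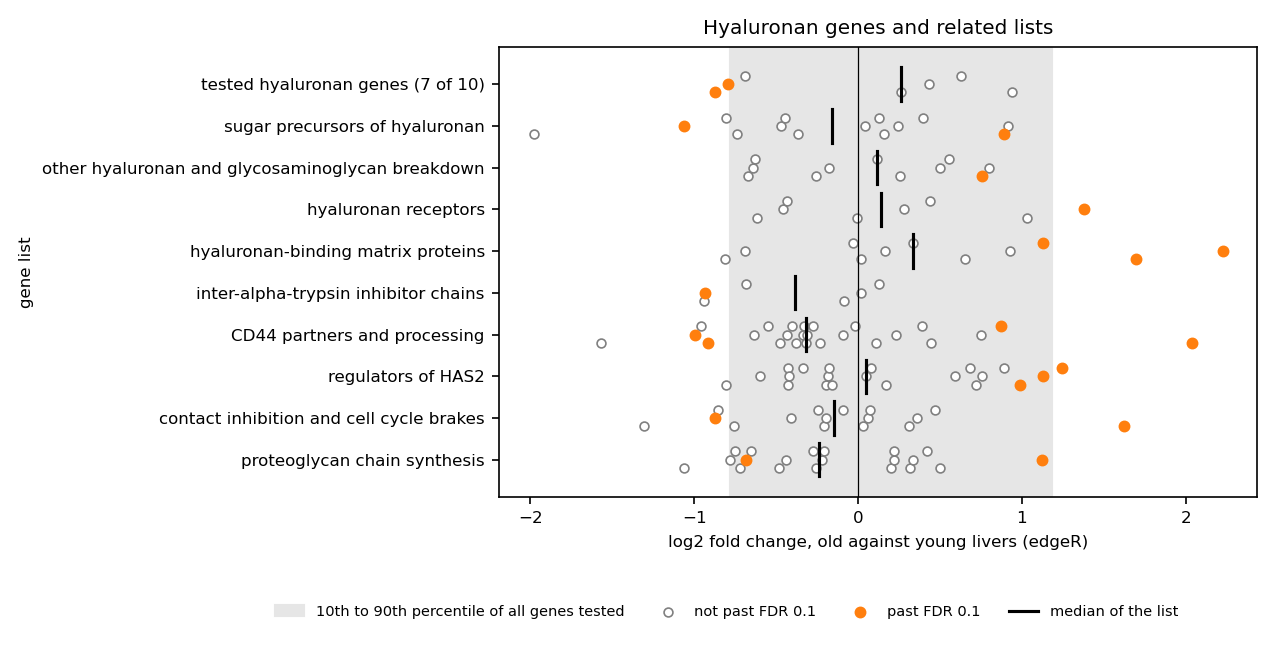
Log2 fold change, old over young, of every tested gene of the hyaluronan set and of each pathway list, with 1 point per gene, filled where it passed FDR 0.1, a line at the list median and a grey band from the 10th to the 90th percentile of all genes tested (−0.78 to 1.18). Points of every list fall on both sides of 0, and medians run from −0.38 for the inter-alpha-trypsin inhibitor chains to 0.34 for the matrix proteins.

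Levels across the 9 livers also gave each hyaluronan gene its closest followers, here as a description in which the points share library, age group and the position of liver A. HYAL1 was most like AHSG, the plasma protein fetuin-A (Pearson r = 0.99 over 9 livers), followed by XKR8 and NDFIP1 (both r = 0.99). HYAL2 was most like CRTAP (r = 0.98), then FCGR2B and TGFBR3 (both r = 0.96), and HYAL3 like CLSTN3, RAB15 and MSH3 (each r = 0.99). UGDH was closest to DCTN5, SMARCC1 and DSC2 (each r = 0.98 or more), CD44 to IFNAR2 (r = 0.97), FABP7 (r = 0.95) and NAP1L1 (r = 0.93). TMEM2 was closest to GLTSCR1L (r = 0.97), CHD6 and SMURF2 (both r = 0.95), and HAS1 to NUDT17 (r = 0.97), C14orf80 and BAIAP2L2 (both r = 0.95). Among the hyaluronan genes themselves HYAL1 and HYAL2 varied together (r = 0.90), and UGDH and HYAL3 ran opposite (r = −0.95).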

How the data were processed

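RNA of 9 male livers was sequenced by the authors from poly(A)-selected libraries (Illumina TruSeq v2, which does not mark strand) as 50 nt single reads. Per the labels and the study's methods, reads were mapped with STAR 2.4.1d and counted per gene with HTSeq. For HTSeq, version and strand setting were not given in the sources used here. The values used are the deposited raw counts per gene, 1 column per animal, and all columns were mapped to a sample by name. The labels put each animal in the young or the old group, and ages were copied from them.

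Of 16339 rows, 93 were left out because their order depends on upper and lower case and differs between the young and the old columns (0.319% of counts), and 25 because their symbols had become dates (0.133%). The 16221 rows kept hold all 10 hyaluronan genes. All 9 libraries were kept as separate animals, since the closest pair still differed by far more than sampling noise (chi-square over its degrees of freedom 27.6). Levels are CPM, which are counts divided by TMM-scaled library sizes, and are compared between livers, not between genes, as transcript lengths were not used.

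Old and young livers were compared with edgeR 4.0.16 in R 4.3.3 (filterByExpr by age group, robust glmQLFit, glmQLFTest) over 12277 genes, with Benjamini-Hochberg adjustment over all of them and a threshold of FDR 0.1, the level the study used. The design had no covariate. Standard errors were obtained as the absolute log2 fold change over the root of F. HAS3 and VCAN, which did not pass the filter, were compared by exact permutation tests, and HAS2, at 0 counts in most livers, was not. Alternatives used DESeq2 1.42.0, limma 3.58.1 (voom with sample quality weights), other scalings, filters and thresholds, a covariate, and the livers left out in turn. The edgeR step was tested on simulated counts.

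Named pathway genes are those past FDR 0.1 in each list and, where fewer than 3 passed, those of lowest p up to 3, of which 1 is not reported here. For each gene tested, the 3 genes with the highest Pearson r of log2 CPM over the livers were named, leaving out symbols that begin with LOC and genes with a mean log2 CPM below 0. The hyaluronan genes, lists and tests were chosen with earlier results of these data known. The RefSeq gene table (H.glaber_assembly_v1.0) was used for gene order and overlaps only, and all 10 genes were found in it. Figures were drawn with Python 3.11.15 and matplotlib 3.10.9.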

Additional observations from a re-analysis of the deposited data

Results flagged for a closer look

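Outlying livers were looked for in the 6 young values of each of the 10 hyaluronan genes, where chance flags about 1 group in 20. HYAL1 reached 90.5 CPM in young liver 3, and its gap to the next young liver was 0.64 of the young range. HYAL2 reached 19.0 CPM in the same liver, with a gap of 0.65 of the range. Without that liver HYAL1 was −0.73 (FDR = 0.0659) and HYAL2 was −0.73 (FDR = 0.0564) on the log2 scale, old over young. HAS2 was 0.217 CPM in young liver 5, which is 3 counts, against 0 counts in the other 5 young livers.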

How the results depend on the processing

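No paired analysis was possible because the groups are different animals and the labels hold nothing that ties an old animal to a young one. Of the 7 genes tested, HYAL1 and HYAL2 kept their sign in all 21 alternatives and passed the threshold in 12 each, with log2 fold changes of −1.01 to −0.26 and −0.99 to −0.52. HAS1 changed sign without liver A (−0.092) and with the share of the 50 top genes as a covariate (−0.56), while leaving out 1 liver gave it −0.092 to 0.95, and TMEM2 changed sign with voom (−0.060), with that covariate (−0.41) and without liver A and young liver 3 (−0.073). The covariate does not overlap between the ages, so that fit cannot tell them apart, and its FDR was 0.999 for HYAL1 and HYAL2. Against 0 hyaluronan genes higher and 2 lower, DESeq2 called 1 higher and voom 2, and FDR 0.05, a test against a fold of 1.5 and the covariate left 0 lower. Leaving out 1 liver at a time gave 0 to 1 higher and 0 to 2 lower. Against 13 other pathway genes higher and 6 lower, DESeq2 called 14 lower, voom 28 and 24, FDR 0.05 gave 3 and 1, the fold test 0 and 0, the covariate 0 and 0, the fit without liver A and young liver 3 gave 20 and 19, and leaving out 1 liver gave 1 to 17 and 0 to 15. Against 1437 of all genes higher and 448 lower, DESeq2 gave 1058 lower, voom 2511 and 2052, FDR 0.05 330 and 90, the fold test 40 and 25, the covariate 13 and 2, and the fit without both livers 1451 lower. Leaving out 1 liver gave 125 to 2071 and 62 to 862. Chosen after seeing the data, fits without the count filter gave log2 fold changes of 0.53 for HAS2 (FDR = 0.803), 0.91 for HAS3 (FDR = 0.596) and −0.64 for VCAN (FDR = 0.598). HAS2, HAS3 and VCAN are limited by depth. The marker sums without their most abundant gene, and IFRD2 and SEMA3B without liver A, were also chosen after seeing the data.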

Other observations

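HYAL3 gave 13.3 to 24.4 counts per 100 HYAL1 counts in the 6 young livers, and 165, 36.0 and 37.2 in livers A, B and C, so that the groups did not overlap. The same count for HYAL2 was 12.2 to 21.0 in young livers and 19.1, 16.3 and 14.6 in livers A, B and C, which lay within the young range. These ratios were chosen after the values were seen and no test was run on them.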
